A study of Mus musculus with 192 samples.

Results

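Pecam1, Cdh5, Kdr, Flt1, Nos3 and Stab1 are genes of the vessel wall, and their RNA was read in single cells that had reached skin wounds from the blood of a joined donor mouse. They are 6 of the 96 assays of a quantitative PCR panel and were taken by gene name, not by their values. All 6 were found, Flt1 under the spelling Flt-1, as assays Mm01242584_m1 (Pecam1), Mm00486938_m1 (Cdh5), Mm01222421_m1 (Kdr), Mm00438980_m1 (Flt1), Mm00435217_m1 (Nos3) and Mm00460390_m1 (Stab1). Values are cycle thresholds (Ct): the more RNA a cell gives, the sooner its reaction lights up and the lower its Ct, by about 1 cycle per doubling. A reaction that stands at 40 was read as not detected.

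The recipients were wild-type mice (WT) and mice whose endothelium has lost the chemokine Cxcl12 (EKO). Each shared its circulation, through surgical parabiosis, with a donor that carries green fluorescent protein (GFP), and was wounded on the back. Cells were sorted from the wounds as GFP-positive and negative for lineage antigens, so the genotype is that of the recipient and GFP marks the donor. On each of 2 sets, A and B, 48 WT cells bear the numbers 1 to 48 and 48 EKO cells the numbers 49 to 96, so genotype and position cannot be told apart. The sources used here do not give the strain, the age, the driver of the deletion, the number of animals, the day after wounding or the lineage antigens. No animal is named, so each genotype is 1 sample, no difference was tested, and intervals cover counting error only.

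Vascular endothelial growth factor A (Vegfa) acts on endothelium mainly through Kdr, the receptor tyrosine kinase that drives proliferation and migration. Flt1 binds the same ligand more tightly, signals weakly and limits how much reaches Kdr. Downstream of Kdr lies Nos3, the endothelial nitric oxide synthase. Cdh5, or VE-cadherin, forms the adherens junctions between endothelial cells, and Pecam1, an adhesion molecule of the same junctions, is also carried by platelets and many leukocytes. Stab1 is a scavenger receptor of sinusoidal and lymphatic endothelium and of some macrophages.

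Promoters of Kdr, Flt1 and Stab1 are shown because the 6 genes were detected together in a small group of cells described next. The 250 bases before the start of transcription come from RefSeq, GRCm38.p6. Those of Pecam1, Cdh5 and Nos3 are not shown. Capitals mark GGAA, the core letters read by ETS transcription factors, on either strand (TTCC is its reverse); no matches overlap.
Kdr (chr5:75978456-75978705, minus strand): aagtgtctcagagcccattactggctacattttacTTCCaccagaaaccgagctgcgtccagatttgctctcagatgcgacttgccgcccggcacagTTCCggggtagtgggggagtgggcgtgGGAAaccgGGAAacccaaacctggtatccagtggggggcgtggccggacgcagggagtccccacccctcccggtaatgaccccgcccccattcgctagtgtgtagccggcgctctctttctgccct
Flt1 (chr5:147726012-147726261, minus strand): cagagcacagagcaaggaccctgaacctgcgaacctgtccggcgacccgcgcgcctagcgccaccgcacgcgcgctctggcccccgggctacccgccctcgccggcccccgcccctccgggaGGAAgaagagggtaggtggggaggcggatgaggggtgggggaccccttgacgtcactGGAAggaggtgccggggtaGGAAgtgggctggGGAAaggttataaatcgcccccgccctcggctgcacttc
Stab1 (chr14:31168642-31168891, minus strand): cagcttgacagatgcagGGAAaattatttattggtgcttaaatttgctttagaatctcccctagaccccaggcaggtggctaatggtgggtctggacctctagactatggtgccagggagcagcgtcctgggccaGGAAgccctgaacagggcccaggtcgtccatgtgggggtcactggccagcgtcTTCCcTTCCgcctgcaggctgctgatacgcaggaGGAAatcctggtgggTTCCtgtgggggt
The letters occur 4 times in the Kdr and in the Flt1 window and 6 times in the Stab1 window. Among 32851 promoter windows of this length 93.4% held at least 1 match, 33.4% held at least 4 and 8.69% at least 6. These matches are a description of the letters, and no binding was measured. Etv2, an ETS factor of early vessel formation that the panel reads, was detected in none of the 170 cells analysed; for the 162 cells outside that small group a count of 0 allows a share of up to 1.85%.

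Of the 192 cells, 170 detected at least 10 of the 96 assays and were kept, 93 from WT and 77 from EKO recipients. The cells left out were 3 WT and 19 EKO cells, and 1 of these 22 detected a member (Pecam1 at Ct 20.5). Kept cells detected a median of 23.5 (WT, set A), 31 (EKO, set A), 20 (WT, set B) and 35 assays (EKO, set B), so yield moves with genotype. No Ct of the 6 genes was later than 26.4, and no detected member lay near the limit of 40.

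The 6 genes occurred in 2 ways: all or nearly all together at early Ct values in 8 cells, and mostly singly at later Ct values in the others. Of the 170 kept cells, 64 (37.6%, exact 95% interval 30.3 to 45.4%) detected at least 1 member. Exactly 1 was detected in 42 cells, 2 or 3 in 14 cells, 4 in 0 cells, 5 in 1 cell and all 6 in 7 cells. Pecam1 was detected in 50 cells, Kdr in 23, Flt1 in 14, Cdh5 in 13, Stab1 in 11 and Nos3 in 10. The largest patterns were Pecam1 alone (31 cells), all 6 genes (7 cells), Kdr alone (6 cells), Pecam1 with Kdr (6 cells), Flt1 alone (3 cells) and Cdh5 alone (2 cells). Nos3 and Stab1 were never detected without another member. Beyond these, 9 patterns occurred in 1 cell each.

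**Figure D1:**
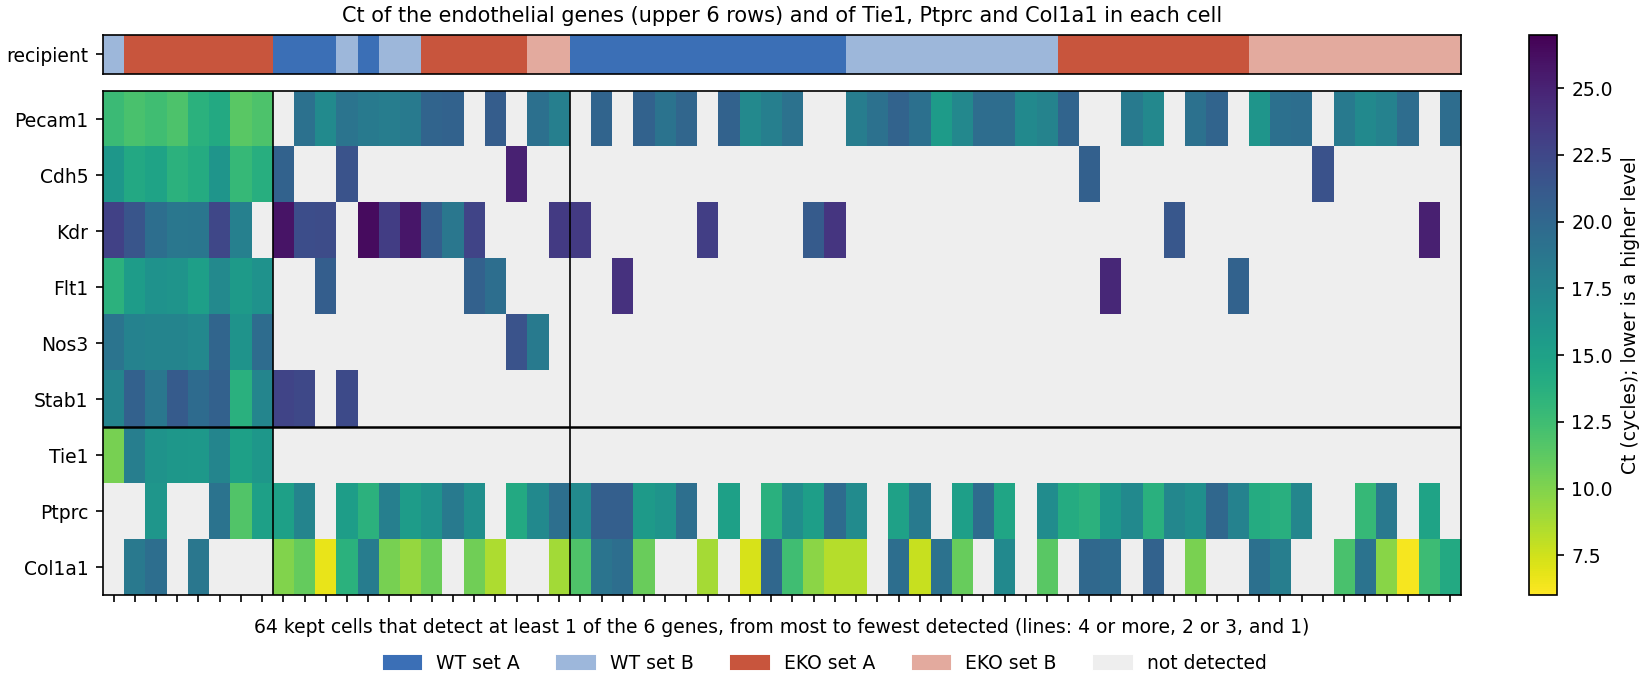
Ct of the 6 genes, and of Tie1, Ptprc and Col1a1, in each of the 64 kept cells that detected at least 1 of the 6 (columns, ordered by the number of members detected; grey is not detected; the strip gives recipient genotype and set). The 8 cells at the left hold 5 or 6 of the genes at early Ct, with Tie1 in each, and 7 of them are EKO cells of set A.

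Pairs among Cdh5, Flt1, Nos3 and Stab1 were found together far more often than their single counts give. Pairs with Pecam1 exceeded those counts by a smaller factor. Cdh5 and Stab1 occurred together in 10 cells, where 0.84 would fall together if the genes were independent over the 170 cells. Nos3 and Cdh5 shared 9 cells (0.76 if independent), and Flt1 and Nos3 shared 8 (0.82). Pecam1 and Kdr shared 15 cells, against 6.76, and Pecam1 and Cdh5 shared 9, against 3.82. Outside the 8 cells with 4 or more members, Pecam1 and Kdr shared 8 cells (4.15 if independent there, and 6.99 among those with at least 24 assays), Cdh5 and Stab1 shared 2 (0.09), and Flt1 shared 0 with Cdh5, Nos3 or Stab1. Among cells with at least 24 assays, where low-yield cells no longer count, Pecam1 and Kdr shared 15 cells against 11.1, and Cdh5 and Stab1 10 against 1.39. These expected counts are descriptions, since the cells share a sort, sets and a range of yields.

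Endothelial genes of the panel that did not define the 8 cells were also read in them. Tie1, an endothelial receptor kinase, was detected in 8 of 8 cells (Ct 10.27 to 17.98, median 15.88) and in 0 of the 162 other kept cells (a count of 0 allows up to 1.85%). Tek, the receptor of the angiopoietins, was also in 8 of 8 at a median Ct of 15.6 ± 0.88 (SD), and in 17.2% of the 87 other cells with at least 24 assays, at 16.6 ± 1.76. Angpt2, a Tek ligand that endothelium releases, was in 8 of 8 at 17.2 ± 2.30 and in 3 of those 87 cells. The panel holds 8 endothelial markers, but 5 of them are members and so chose these cells. Of the other 3, Tek and Tie1 were in each of the 8 cells and Etv2 in 0. These cells detected 41 to 64 assays outside the members, median 48, and the 87 cells 23 to 61, median 45, so the highest yield of the 8 lies above the range of the 87.

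Further vascular and progenitor genes were detected in the 8 cells to different extents. Eng, or endoglin, which assists receptors of the TGF-beta family, was in 8 of 8 cells at a median Ct of 17.6 ± 1.33 and in 48.3% of the 87 cells at 22.1 ± 2.09. Mcam, an adhesion molecule of endothelium and pericytes, was in 7 of 8 cells and in 6.90% of the 87. Jag1, a Notch ligand, was in 7 of 8 and 43.7%, Notch1 in 8 of 8 and 47.1%, Icam1 in 8 of 8 and 70.1%, and Vcam1 in 5 of 8 and 52.9%. Efnb2 and Ephb4, the arterial and venous ephrin pair, were each in 0 of 8, which allows up to 37.5%, and in 4 and 0 of the 87, so they do not set the 8 cells apart. Vegfa itself was in 3 of 8 cells and in 64.4% of the 87. Kit, the receptor of stem cell factor, was in 8 of 8 cells (25.3% of the 87), Cd34 in 8 of 8 (51.7%) and Ly6a in 8 of 8 (90.8%). The other progenitor genes of the panel, Runx1 and Gata2, were in 6 of 8 (85.1%) and 3 of 8 (4 of the 87). Pdgfb, a growth factor that endothelium sends to pericytes, was in 8 of 8 and 17.2%, and was picked out after its values were seen.

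Markers of other cell types were partly present in the 8 cells. Of the 7 mesenchymal markers each cell detected 1 to 3, with Pdgfra and Pdgfrb at 0. Col1a1, the main fibrillar collagen, was in 3 of the 8 at Ct 18.5 to 19.4, whereas its median was 11.2 in detecting cells of the 87. Col3a1 was in 5 of the 8 at Ct 15.98 to 26.96 (79.3% of the 87), and Col1a2 in 4 at 16.56 to 23.66 (72.4%). Thy1 was in 3 of the 8 (80.5%) and Acta2 in 2 (27.6%). Ptprc, the pan-leukocyte antigen CD45, was in 4 of the 8, all EKO cells of set A, at Ct 11.72, 15.06, 15.97 and 18.98, and the median in detecting cells of the 87 was 16.6 ± 1.64. The same 4 cells detected Cd48, and 3 of them detected the myeloid integrin Itgam. The other 4, from 3 EKO and 1 WT cell, detected neither Ptprc nor Cd48. Of the 87 cells, 79.3% detected Ptprc, 67.8% Cd48 and only 3 cells Itgam. The further myeloid markers Adgre1 and Ccr2 were in 2 of the 8 (4 of the 87) and in 4 of the 8 (42.5%). Wells with more than 1 cell were not identified in the sources used here, and their part in these results was not tested.

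Pecam1 spanned a wide range of levels, with the 8 cells apart from all others. Its Ct in these was 11.39, 11.83, 11.88, 12.01, 12.43, 12.67, 13.58 and 14.26. In the other 42 detecting cells it ran from 15.5 to 20.8 with a median of 19.1 ± 1.29, so the ranges did not overlap. The medians differed by -6.89 cycles, and by -6.29 cycles when each cell was taken against its own median over detected assays. Alone, in 31 cells, Pecam1 had a median Ct of 19.2 ± 1.34, and with 1 or 2 other members, in 11 cells, 18.9 ± 1.18, a gap within the SD. An earlier Pecam1 in company of further members was thus seen only in the 8 cells, which held 5 or 6 of these genes. No cell held exactly 4 and the grouping was chosen after seeing the data, so no threshold can be placed. The reference genes stood at like levels in both: the median Ct of Actb was 10.3 in the 8 cells and 10.1 in the 87 others with at least 24 assays, and that of B2m was 13.1 and 13.4.

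The junction gene Cdh5 showed the same gap. In the 8 cells its Ct ran from 12.9 to 16.1, with a median of 14.2 ± 1.12. In the other 5 detecting cells it was 20.41, 20.60, 21.62, 21.73 and 25.05. No other cell came within 4 cycles of the latest of the 8, and the medians differed by -7.38 cycles.

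Of the VEGF receptors, Flt1 was divided in this way and Kdr was not. Flt1 stood at 13.5 to 17.1 in the 8 cells, median 15.9 ± 1.08, and at 19.38, 20.40, 20.44, 20.71, 23.98 and 24.67 in the other 6. Kdr stood at 17.8, 18.6, 18.8, 19.4, 21.5, 22.5 and 22.9 in the 7 of the 8 cells that detected it. In the other 16 detecting cells it ran from 18.6 to 26.4 with a median of 23.1 ± 2.10, so the ranges overlapped although the medians differed by -3.73 cycles. Kdr alone (6 cells, median 23.3 ± 1.59) and Kdr with 1 or 2 others (10 cells, 22.9 ± 2.44) lay within the SD of each other.

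Nos3 and Stab1 were rare outside the 8 cells. Nos3 stood at 16.2 to 20.1 in the 8, median 17.6 ± 1.31, and at 18.4 and 21.6 in the only others that detected it, both EKO cells that also detect Ptprc. The earlier of these lies inside the range of the 8. Stab1 stood at 13.66 to 20.99, median 19.14 ± 2.41, against 22.3, 22.5 and 22.7 in 3 other cells, all WT and collagen-high as defined below. Its earliest value, 13.7, came from EKO cell 89 of set A, which also had the earliest Ptprc of the 8 the most assays detected of any cell, 70, and an Actb Ct of 6.19.

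**Figure D2:**
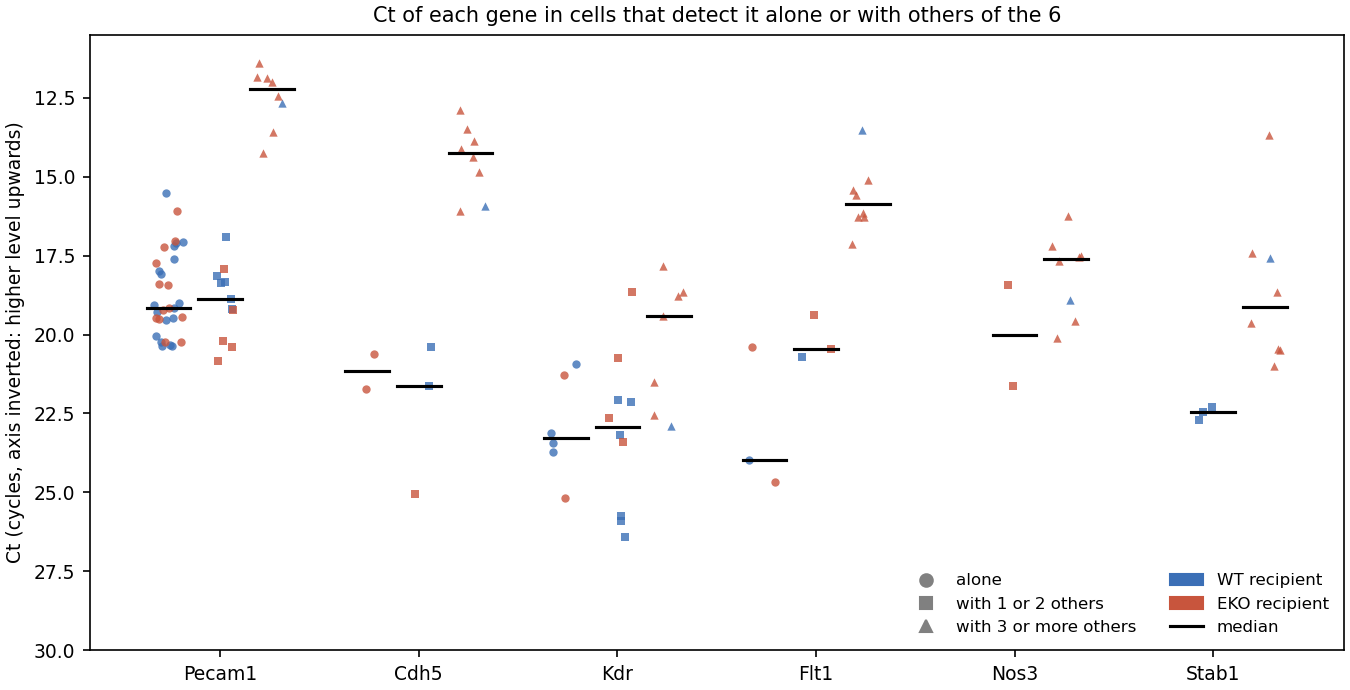
Ct of each gene (vertical axis, inverted so that a higher level is up) in every kept cell that detected it alone (circles), with 1 or 2 of the other 5 genes (squares) or with 3 or more (triangles), coloured by recipient genotype; lines are medians. Triangles lie clear of the other cells for Pecam1, Cdh5, Flt1 and Stab1, and overlap them for Kdr and Nos3.

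The assays most like each member in where they were detected were other endothelial genes, except for Pecam1. Likeness was the phi coefficient of detection over the 170 cells, a correlation of presence and absence, with no test because cells share sets and yield. Nos3 was closest to Tie1 (phi 0.89) and Cdh5 (0.77), Stab1 to Tie1 (0.84) and Cdh5 (0.82), Cdh5 to Stab1 and then Nos3, and Flt1 to Tie1 (0.74), Nos3 (0.65) and Angpt2 (0.62). Tie1 was detected in the group of 8 alone, so these values rest largely on the same 8 cells and restate that grouping. Kdr was closest to Tek (0.65), with which it shared 16 of its 23 cells and 9 of the 16 cells outside the group of 8. Pecam1 was closest to Pik3r1, a subunit of phosphoinositide 3-kinase (0.43), and Myc (0.42), which 89 and 71 of the 170 cells detected. Over the 95 cells with at least 24 assays its closest were Tie1 (0.31), Stab1 (0.31) and Angpt2 (0.31).

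Outside the 8 cells, Kdr was found mostly in cells rich in collagen transcript, and most of these Kdr cells also detected Ptprc. Pecam1 was found in collagen-rich cells and in Ptprc-detecting cells without high collagen. Collagen-high cells were those with Col1a1 and Col3a1 both below Ct 16, 46 of the 170. Another 71 cells detected Ptprc without being collagen-high, and 53 did neither. The median number of assays detected was 52, 28 and 15, and over all 96 assays the median share of detecting cells was 53.3%, 18.3% and 9.43%, so a higher share in collagen-high cells is the rule on this panel. Of the collagen-high cells 31 also detected Ptprc. None of the 46 detected 4 or more members, which allows a share of up to 6.52%; 4 of the 8 cells were in the Ptprc-detecting class and 4 in neither.

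Kdr was detected in 13 of 46 collagen-high cells (28.3%, 95% interval 15.99 to 43.46%) at Ct 20.7 to 25.9, median 23.2 ± 1.63. In Ptprc-detecting cells it was in 6 of 71 (8.45%, 3.16 to 17.5%), of which 3 were among the 8 cells, and in the rest in 4 of 53, all 4 among the 8. Thus 13 of the 16 Kdr cells outside the 8 were collagen-high. All of these 16 except WT cells 20 and 47 of set A also detected Ptprc. Among cells with at least 24 assays the shares were 28.3% in collagen-high and 14.3% in Ptprc-detecting cells. Of the collagen-high cells, 9 of 25 WT (36%, 17.97 to 57.48%) and 4 of 21 EKO cells (19.05%, 5.45 to 41.91%) detected Kdr, with overlapping intervals.

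Pecam1 was detected in 20 of 46 collagen-high cells (43.5%, 28.9 to 58.9%), in 23 of 71 Ptprc-detecting cells (32.4%, 21.8 to 44.5%) and in 7 of the other 53 (13.2%, 5.48 to 25.3%). With at least 24 assays the first 2 shares were 43.5% and 47.6% (20 of 42), in the opposite order. The latter counts 4 of the 8 cells, and without them the order does not turn. Leaving aside the 8 cells, its median Ct was 18.7 ± 1.11 in collagen-high and 19.4 ± 1.27 in Ptprc-detecting cells, a gap smaller than either SD. Pecam1 thus stood at a like, late Ct in both classes. The other 4 genes were rare in collagen-high cells: Flt1 and Stab1 were each in 3 of 46 (6.52%), Cdh5 in 2 (4.35%) and Nos3 in 0. Over the 6 genes, with the 8 cells counted, the median share was 6.52% in collagen-high, 8.45% in Ptprc-detecting and 7.55% in the remaining cells. The median over all assays fell from 53.3% to 9.43% across these classes. Without the 8 cells, Pecam1 also fell across the classes (43.5%, 28.4% and 6.12%), as did Kdr (28.3%, 4.48% and 0%). Flt1 then stood at 6.52%, 4.48% and 0%, and Cdh5 at 4.35%, 2.99% and 2.04%. Stab1 stood at 6.52%, 0% and 0%, and Nos3 at 0%, 2.99% and 0%.

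**Figure D3:**
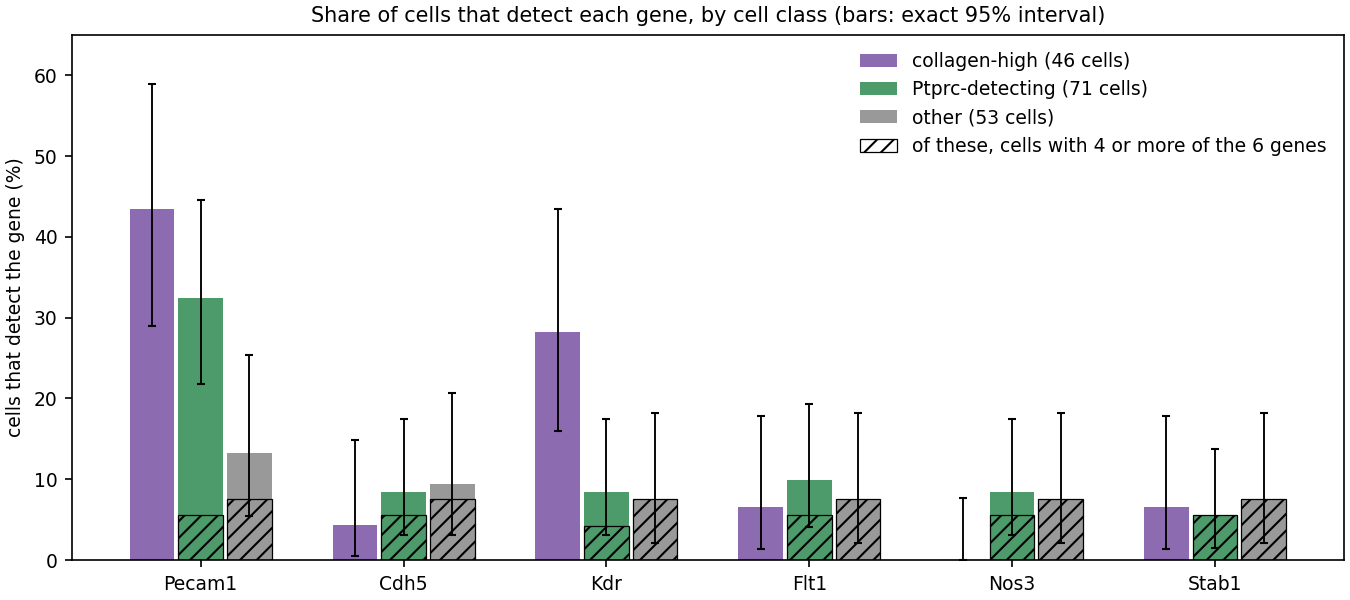
Share of cells that detected each gene in the 46 collagen-high, 71 Ptprc-detecting and 53 other kept cells, with exact 95% intervals; hatching marks the part that comes from the 8 cells with 4 or more of the 6 genes. Unhatched bars are tallest for Pecam1, in collagen-high and Ptprc-detecting cells, and for Kdr, in collagen-high cells.

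By recipient genotype, each member was more often detected in EKO cells in set A, and in set B each was less often detected there except Nos3. Of the EKO cells of set A that detected a gene, those in the group of 8 were 7 of 15 for Pecam1, 7 of 9 for Cdh5, 6 of 10 for Kdr, 7 of 11 for Flt1, 7 of 8 for Nos3 and 7 of 7 for Stab1. Cells with 4 or more members were 7 of 39 EKO cells (17.9%, 95% interval 7.54 to 33.5%) and 0 of 48 WT cells in set A, the latter allowing up to 6.25%. In set B they were 0 of 38 EKO cells, allowing up to 7.89%, and 1 of 45 WT cells (2.22%, 0.06 to 11.8%). Over both sets EKO had 7 such cells in 77 (9.09%, 3.73 to 17.8%), and WT had 1 in 93 (1.08%, 0.03 to 5.85%). The 7 EKO cells bear numbers between 56 and 89 on set A and the WT cell is number 17 of set B. Without the EKO cells of set A, 1 such cell remains in the series.

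Cells with at least 2 members were 12 of 39 EKO (30.8%) and 4 of 48 WT cells (8.33%) in set A, and 2 of 38 (5.26%) and 4 of 45 (8.89%) in set B. Among cells with at least 24 assays they were 12 of 25 EKO and 4 of 24 WT cells in set A, and 2 of 28 and 4 of 18 in set B, so the same orders held there.

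Flt1 was detected in 11 EKO cells, all in set A, and in 3 WT cells. The shares were 14.3% in EKO (7.35 to 24.1%) and 3.23% in WT (0.67 to 9.14%), which differ by 11.1 percentage points: set A gave 24.04 and set B -2.22. Nos3 was detected in 9 EKO cells (11.7%, 5.49 to 21.03%) and 1 WT cell (1.08%, 0.03 to 5.85%), 10.6 points apart: set A gave 20.5 and set B 0.41. These were the members past 10 points, 2 of 6; of all 96 assays 25% were past 10 points higher in EKO and 1.04% lower. With the same sign in both sets the count was 1 of 6, Nos3, where 20.8% of all assays met that rule, so the members met it no more often than the panel. The set B value of Nos3 rests on 1 cell of each genotype. The 10-point counts depend on the cell filter, which left out 3 WT and 19 EKO cells. With no filter on cells Flt1 and Nos3 each differed by 8.33 points, below 10, and Pecam1 and Kdr each by 1.04. The share of all assays past 10 points was not computed without the filter.

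Cdh5 was detected in 10 EKO (12.99%, 6.41 to 22.59%) and 3 WT cells (3.23%, 0.67 to 9.14%), 9.76 points apart: set A gave 20.99 and set B -1.81. Stab1 differed by 4.79 points (13.8 in set A, -4.44 in set B), Kdr by 3.76 (8.97 and -1.40) and Pecam1 by 5.59 (15.5 and -4.80). Thus 5 of 6 members were higher in EKO in set A and lower in set B, an order that 16.7% of all assays showed. The median difference over the 6 was 7.67 points, against 5.70 over all 96 assays. Among cells with at least 24 assays, 2 of 6 members (Nos3 and Flt1) were past 10 points higher in EKO, where 9.38% of all assays were, and 0 of 6 with the same sign in both sets, where 4.17% were. There, 6 of 6 members were higher in EKO in set A and lower in set B, where 33.3% of all assays were, and the pooled differences of Pecam1 and Kdr there were -7.10 and -3.55 points, of the opposite sign. With at least 10 assays, within sets, the members' median was 18.03 points in set A, where that of all assays was 2.88, and -2.02 points in set B, where it was 7.05. In set A, EKO and WT intervals were separate for Flt1 and Nos3 (15.001 to 44.87% against 0.51 to 14.3% for Flt1, and 9.30 to 36.5% against 0 to 7.40% for Nos3). The same held for Cdh5, with 11.1 to 39.3% against 0.05 to 11.1%, by a margin too small to show at this rounding. This separation is no test of genotype, because the intervals cover counting error over cells and no animal is named. Nor are these genes separate evidence, since the same 7 EKO cells with at least 4 members enter the set A share of each.

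**Figure D4:**
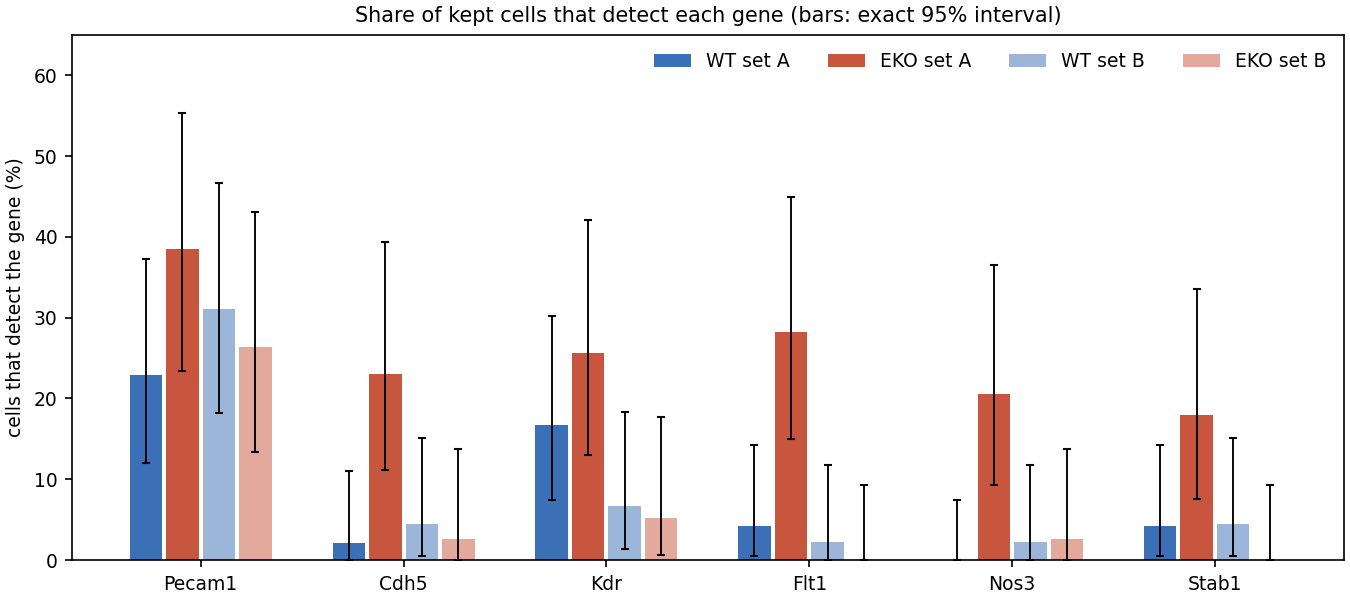
Share of kept cells that detected each gene, by recipient genotype and set, with exact 95% intervals (48 WT and 39 EKO cells in set A, 45 and 38 in set B). EKO cells of set A stand highest for each gene, and in set B the intervals of the genotypes overlap for each gene.

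Outside the 8 cells Pecam1, Kdr, Cdh5 and Flt1 were found in both genotypes, Nos3 in EKO cells alone and Stab1 in WT cells alone, the last 2 in few cells. Pecam1 was then detected in 24 WT and 18 EKO cells, with median Ct values of 18.9 ± 1.29 and 19.2 ± 1.32, a gap well inside the SD. Kdr was in 10 WT cells at 23.3 ± 1.82 and in 6 EKO cells at 21.96 ± 2.27, also within the SD. Cdh5 was in 2 WT and 3 EKO cells, Flt1 in 2 and 4, Nos3 in 0 and 2, and Stab1 in 3 and 0. Over all detecting cells, the 8 included, Pecam1 had a median Ct of 18.9 ± 1.74 in WT cells and of 18.4 ± 3.20 in EKO cells. Of the early values in the 8 cells, 7 lie in the EKO group and 1, at 12.67, in the WT group.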

How the data were processed

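Lineage-negative, GFP-positive cells were read with 96 TaqMan assays each. The authors deposited 1 table of values that the file does not name; they were read as raw Ct from their range and from the table being described as not normalized. The sources used here do not describe preamplification or failed reactions. Ct values were not normalized. A reaction below 40 was detected, and cells with fewer than 10 detected assays were left out. Shares carry exact Clopper-Pearson 95% intervals, and the limit for a count of 0 is 3 counts of the total. Ct values are medians ± SD over detecting cells. Work was done in Python 3.11.15, pandas 2.3.3, SciPy 1.17.1 and Matplotlib 3.10.9, and the scripts were tested on simulated data. The text names the members, genes of the vascular and marker lists, and the 3 assays most like each member; the members and lists were chosen with earlier results of these data known. 1 gene of a likeness list is not reported here. Alternatives were other Ct limits, yield filters, collagen limits, yield weighting, scaling to the cell median or to reference genes, and each set left out. The grouping into cells with 2 or 3 and with 4 or more members, and the restriction to cells without Ptprc, were chosen after seeing the data.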

Additional observations from a re-analysis of the deposited data

Results flagged for a closer look

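Several differences between recipients ran opposite ways in the sets, and the difference between sets was not tested. As EKO minus WT in percentage points of cells, set A then set B, Flt1 stood at 24.04 and -2.22, Cdh5 at 20.99 and -1.81, and Pecam1 at 15.5 and -4.80. Stab1 stood at 13.8 and -4.44, and Kdr at 8.97 and -1.40. The share of cells with at least 2 members differed by 22.4 and -3.63, and that of cells with at least 4 by 17.9 and -2.22. The 7 EKO cells of set A with at least 4 members enter each of these set A values except that of Kdr, which 6 of them enter.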

How the results depend on the processing

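The genotype values differed between sets. The median difference over the 6 members (7.67 points, EKO minus WT) was 18.03 within set A and -2.02 within set B. For cells with at least 2 members (9.58) it was 22.4 and -3.63, for cells with at least 4 (8.02) 17.9 and -2.22, and for Flt1 -2.22 in set B. With weights that equalise the spread of assays per cell these 3 summaries were 7.03, 7.70 and 7.72. With no filter on cells they were 5.21, 6.25 and 6.25. Without the EKO cells of set A, cells with 2 or 3 members fell from 14 to 9 and cells with 4 or more from 8 to 1. The gap of Pecam1 Ct between cells with other members and cells with it alone (-1.23) was -4.89 in set A and 0.045 relative to the reference genes. With the 8 cells counted, Pecam1 in collagen-high minus Ptprc-detecting cells turned to -4.14 points with at least 24 assays and to -0.93 in set A. The Ct difference between recipients turned for Cdh5 (2.96) and Kdr (1.11) in set B, and for Flt1 (1.35) and Nos3 (0.74) relative to the reference genes. That of Nos3 between cells with 3 or more and up to 2 others turned to 0.50 in set B. The cause of these shifts was not tested. Another 10 single-gene values moved past their limits, among them the within-set shares of Cdh5, Nos3 and Stab1. Also among them, the Nos3 gap (-2.42) moved to -0.71 relative to the cell median. The Flt1 difference between recipients (-4.42) moved to -0.82 with at least 24 assays. Of the other values, 51 of the main results and 187 of the single-gene results stayed within their limits. These were intervals for shares, an SD for medians and Ct, and a fixed factor for counts. A turn of sign was flagged only where the main value was at least 10 points or 1 cycle. Values inside the limits could thus change sign. The Pecam1 difference between recipients (5.59 points) was -7.10 with at least 24 assays, -4.80 in set B and -0.28 with the weights. That of Kdr (3.76) was -3.55 with at least 24 assays and -1.40 in set B. The counts of 51 and 187 include the values with Ct limits of 28, 30 and 35. No member Ct was later than 26.4, so those limits could not change a member call and show no stability. No paired analysis was possible because cell numbers pair nothing and no animal is named.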
